A study of Mus musculus with 6 samples.

Results

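The cholesterol content of the intestinal epithelium is set by synthesis from acetyl-CoA, uptake from the lumen, esterification and export, and the genes of these routes can be followed at the level of RNA. The 29 genes described here were chosen by name as the enzymes, sensors and transporters of those routes, and they were found by matching the gene identifiers of the count table to mouse symbols. All 29 were present and passed the low-count filter, among 54446 gene identifiers listed and 19176 genes tested. Whole-tissue RNA of the intestine was sequenced from 6 samples of wild-type (WT) mice, all taken at 96 h. The 3 control samples came from mice left with the dam. The 3 NEC samples, named for necrotizing enterocolitis, came from mice given 40 µl of 33% Esbilac formula by gavage at intervals of 4 h, and each 12 h they were also kept for 100 s in 99.9% nitrogen and then for 10 min at 4 °C. NEC therefore stands for feeding, hypoxia and cold together, and the share of each cannot be told apart. How old the mice were, their sex and the segment of intestine are not stated in the sources used here. No source says either that every sample came from its own animal, and p-values therefore describe only the spread among these 6 samples, part of which may be technical.

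Cells make cholesterol by condensing acetyl-CoA into mevalonate, building isoprenoid units into squalene, closing squalene into lanosterol, and trimming and reducing lanosterol. The pathway is governed by SREBP-2, a membrane-bound transcription factor encoded by Srebf2 that the escort protein SCAP carries out of the endoplasmic reticulum when sterols are scarce and that INSIG proteins retain when sterols are plentiful. In the small intestine, absorptive enterocytes also take sterols from the lumen through NPC1L1, esterify cholesterol with SOAT2 for packing into chylomicrons, return sterols to the lumen through the ABCG5 and ABCG8 pair, and load high-density lipoprotein through ABCA1. Oxysterol-activated LXR receptors are known to induce the export genes.

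Total counts per library lay between 69441184 and 106304239, and the smallest count of any of the 29 genes in any library was 170, for Mvk in control replicate 1. Levels are given as CPM, counts scaled by edgeR to a common library size, and a log2 fold change is positive where NEC was higher. A gene was called changed where the edgeR quasi-likelihood test gave an adjusted p below 0.05 over all genes tested. Control replicates 1 and 2 held Xist RNA at 179 and 344 CPM and the other 4 libraries held at most 1.17 CPM, while the Y-linked Ddx3y stood at 19.8 and 1.29 CPM in these controls and at 25.6 to 44.8 CPM in the other 4. Control replicate 1 thus held both, and the 3 NEC libraries held Xist at no more than 0.546 CPM. High Xist was thus seen among controls alone, so sex may not be balanced between the groups, and its part in the results was not tested. Nsdhl and Ebp of the 29 genes are on the X chromosome. The enterocyte markers Vil1, Cdh17, Fabp2, Fabp1, Alpi and Epcam were abundant in every library, with a summed level of 12600 to 17900 CPM in the controls and 8300 to 15200 CPM in the NEC group, and none of the 6 was called. All 6 had negative log2 fold changes, from -0.10 for Cdh17 to -1.82 for Fabp1 (2752 and 782 CPM on average), and all 6 overlapped between the groups. In whole tissue, fewer cells of a type and less RNA per cell cannot be told apart.

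The sequence before the start site is shown for Lss and Hsd17b7, the genes of the pathway that passed the test, and for Hmgcs1, which alone of the 23 with a window held the sterol regulatory element searched for. RefSeq windows on GRCm38.p6 were matched for 23 of the 29 genes, and the 250 bases before each start site were searched on both strands. Each sequence runs 5′ to 3′ on the strand of its gene and stops at or before the start of the annotated gene. Capitals mark the sterol regulatory element core, TCACNCCAC, which SREBP proteins bind, and the CCAAT box core, CCAAT, which NF-Y binds and which reads ATTGG when it lies on the opposite strand.
Hmgcs1, chr13:119690101-119690350, plus strand: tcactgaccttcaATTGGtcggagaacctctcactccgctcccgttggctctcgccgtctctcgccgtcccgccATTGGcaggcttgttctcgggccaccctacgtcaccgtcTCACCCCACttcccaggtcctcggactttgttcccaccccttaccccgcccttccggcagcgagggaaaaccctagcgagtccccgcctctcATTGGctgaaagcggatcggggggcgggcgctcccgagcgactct
Lss, chr10:76531355-76531587, plus strand: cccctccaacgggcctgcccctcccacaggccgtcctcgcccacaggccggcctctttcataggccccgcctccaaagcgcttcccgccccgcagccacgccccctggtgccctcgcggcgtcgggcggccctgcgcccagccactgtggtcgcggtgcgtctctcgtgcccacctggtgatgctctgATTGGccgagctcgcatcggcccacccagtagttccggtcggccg
Hsd17b7, chr1:169969242-169969455, minus strand: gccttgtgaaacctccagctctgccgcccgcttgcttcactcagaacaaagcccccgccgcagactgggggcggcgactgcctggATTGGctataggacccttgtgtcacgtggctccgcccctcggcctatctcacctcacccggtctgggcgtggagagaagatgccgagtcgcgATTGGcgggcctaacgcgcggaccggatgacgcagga

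In the Hmgcs1 window the sterol element began 137 bases before the start site and lay between CCAAT boxes at 176 and 45 bases before it, with a further box at 237. The Lss sequence held 1 CCAAT box, 62 bases before the start site. In Hsd17b7 boxes began 165 and 73 bases before the start site, and a further one at 12 falls in the 36 bases that were left out because they lie inside the annotated gene. Among the 23 genes with a window, 1 held TCACNCCAC, against 1.22% of 27025 gene symbols with a window of the same length. These symbols are not limited to the genes tested, and windows on chromosome 18, where Npc1 and Stard4 lie, were left out. A CCAAT box was present in 19 of the 23, against 37.5% of these symbols. The GC box GGGCGG, known to be bound by Sp1, was present in 19 of the 23, against 35.4%. The LXR element, searched as an exact direct repeat with a spacer of any 4 bases, was in none of the 23 windows and in 4 of the 27025 symbols (0.0148%). So rare a string would hardly be met in 23 windows, and its absence says nothing about these genes. Each motif was counted on its own, also where matches to different motifs overlapped, and a match is a description of the sequence only.

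Of the 29 genes, 2 rose and none fell. The 2 were Lss, which cyclizes squalene epoxide into lanosterol, and Hsd17b7, which reduces the 3-keto group left by demethylation of lanosterol. Over all genes tested, 0.704% were called, 0.261% higher and 0.443% lower in NEC. At an unadjusted edgeR p below 0.05, 13 of the 29 were higher and 2 were lower, where 7.61% and 7.99% of all genes tested were. DESeq2 called 10 of the 29 higher and 1, Npc1l1, lower, where it called 3.69% and 4.02% of the genes to which it gave an adjusted p. By role, the median log2 fold change was 1.62 over the 7 early enzymes, 1.92 over the 3 enzymes from squalene synthesis to lanosterol and 0.52 over the 8 enzymes after lanosterol, beside 0.026 over all genes tested. For the 11 genes of sensing, uptake, esterification and export it was 0.028.

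**Figure D1:**
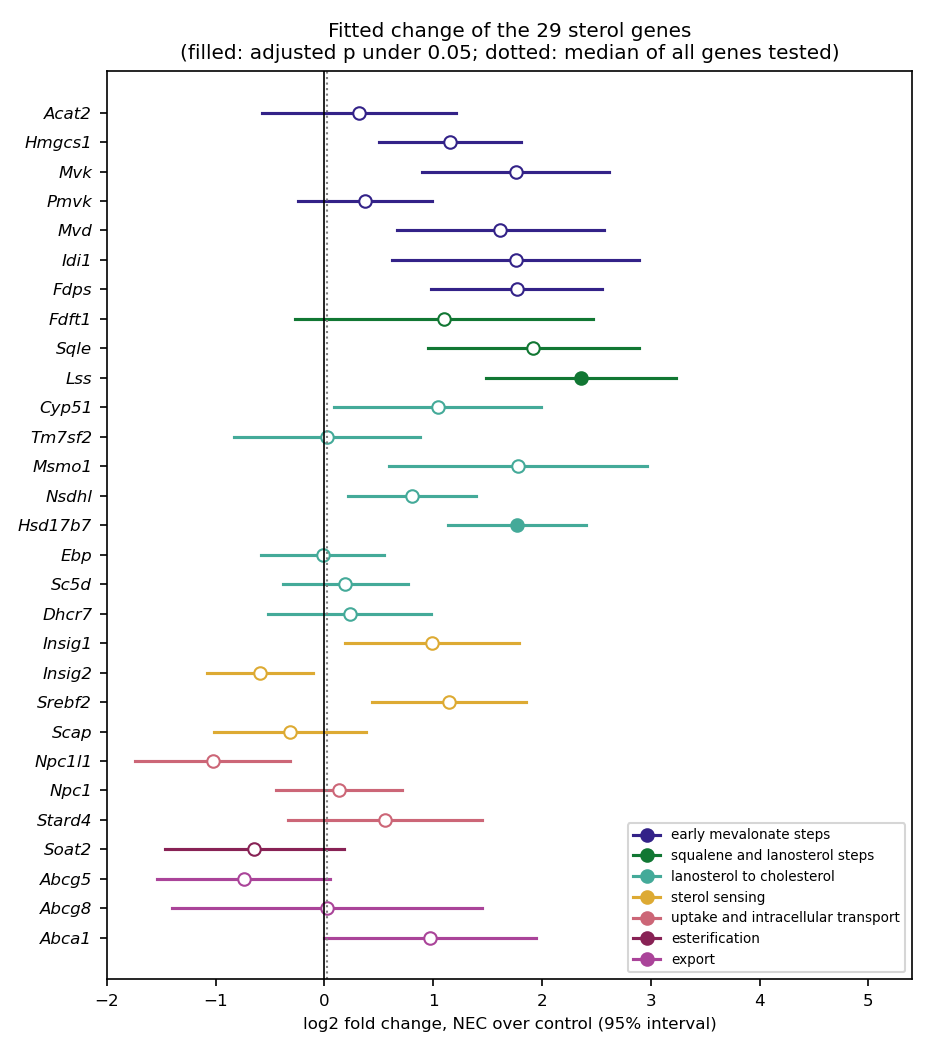
Log2 fold change of NEC over control for each of the 29 genes, in the order of the route, with the 95% interval of the edgeR fit; filled points mark adjusted p below 0.05 and the dotted line marks the median of all genes tested. Lss and Hsd17b7 carry the filled points, and the intervals of Npc1l1 and Insig2 lie wholly below 0.

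Early mevalonate enzymes had positive values in all 7 cases, and 5 of the 7 had every NEC library above every control library, which held for 10.8% of all genes tested. None of the 7 passed the test, with adjusted p between 0.0688 and 0.751. Fdps makes farnesyl diphosphate, the branch point to squalene, to prenylated proteins and to ubiquinone. Its level was 20.2, 28.2 and 16.5 CPM in control replicates 1 to 3 and 86.1, 46.3 and 88.2 CPM in NEC replicates 1 to 3. The lowest NEC library lay above the highest control library, and NEC replicate 2 was the lowest of its group (log2 change of 1.77 with SE 0.34; edgeR adjusted p = 0.0688).

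Mvk, the mevalonate kinase gene, stood at 2.32, 4.48 and 3.78 CPM in the controls and at 12.5, 8.54 and 14.8 CPM in the NEC group. The groups did not overlap, and the mean went from 3.53 ± 1.11 to 11.9 ± 3.15 CPM (SD, n = 3 each; log2 change of 1.76 with SE 0.37; edgeR adjusted p = 0.0846). Hmgcs1 makes HMG-CoA, the substrate of the step that commits the pathway. It had 62.7, 84.9 and 47.8 CPM in the controls and 133, 127 and 176 CPM in the NEC group. All 3 NEC libraries were higher than all 3 controls, at a smaller fold than Fdps or Mvk (log2 change of 1.16 with SE 0.28; edgeR adjusted p = 0.114).

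Mvd, which decarboxylates mevalonate diphosphate, had 6.35, 13.4 and 6.17 CPM in the controls and 28.6, 17.6 and 33.3 CPM in the NEC group. The groups were separated by the gap between control replicate 2 and NEC replicate 2 (log2 change of 1.62 with SE 0.41; edgeR adjusted p = 0.121). Idi1, which isomerizes isopentenyl diphosphate, had a similar value (log2 change of 1.76 with SE 0.49; edgeR adjusted p = 0.148). The 2 early enzymes whose groups overlapped were Acat2, the cytosolic thiolase that starts the route, at 35.9 ± 18.7 CPM in the controls and 44.9 ± 10.4 CPM in the NEC group, and Pmvk, the phosphomevalonate kinase gene, at 13.7 ± 1.56 and 17.8 ± 3.81 CPM. Their log2 fold changes were 0.32 and 0.37, with 95% intervals of -0.57 to 1.21 and -0.24 to 0.99, so that a doubling is inside the interval of Acat2 and just outside that of Pmvk.

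**Figure D2:**
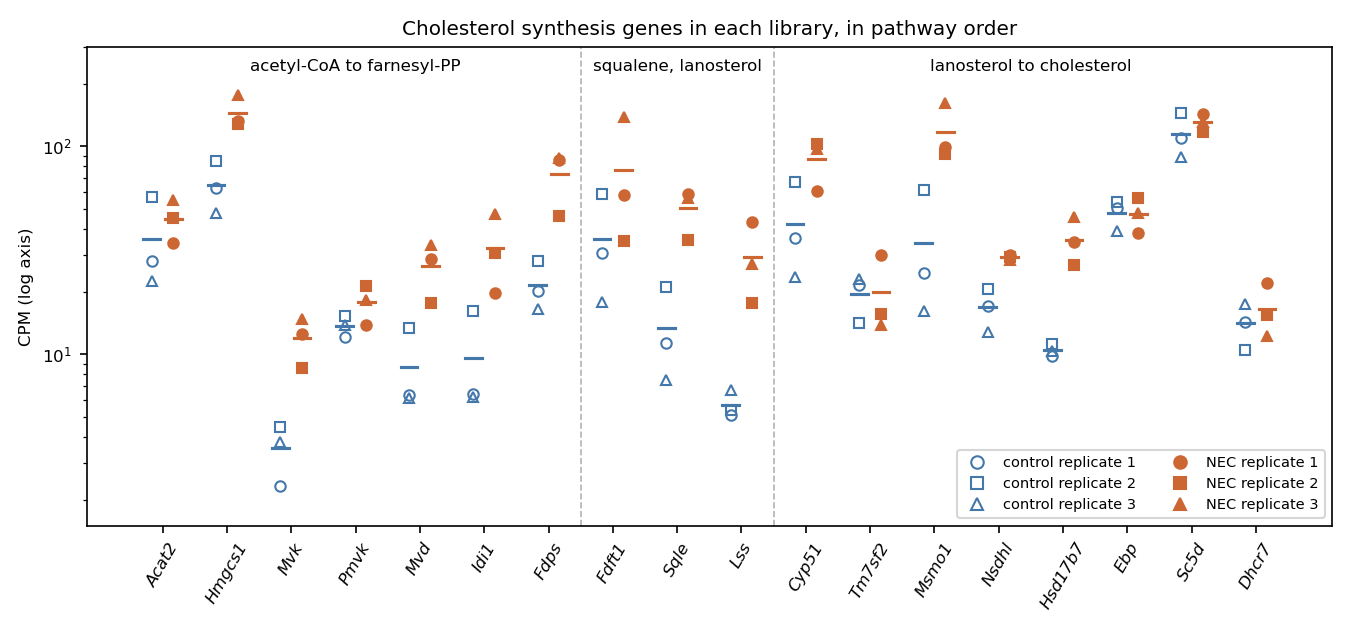
CPM on a log axis of the 18 synthesis genes in each library, in pathway order, with open blue symbols for control, filled orange symbols for NEC, 1 shape per replicate number and a bar at each group mean. NEC lies wholly above control for 10 of the 18 genes, against 10.8% of all genes tested, and open squares (control replicate 2) lie at the top of the control points for 15 of them.

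Lss rose most among the 29. This gene (ENSMUSG00000033105, mm10 chromosome 10, 76531588 to 76557138, plus strand) had 5.08, 5.39 and 6.72 CPM in the controls and 43.3, 17.6 and 27.2 CPM in the NEC group. Controls were tightly grouped, and the NEC libraries were widely spread and all lay above them. The mean went from 5.73 ± 0.871 to 29.4 ± 13.0 CPM (SD, n = 3 each), a fitted 5.12-fold rise (log2 change of 2.36 with SE 0.38; edgeR adjusted p = 0.0457). The opposite-strand gene 4930483K19Rik, which shares 381 exonic bases with Lss, had at most 3 counts in any library.

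Sqle, the squalene epoxidase gene and a rate-limiting step after mevalonate, had 11.3, 21.1 and 7.55 CPM in the controls and 59.0, 35.6 and 56.7 CPM in the NEC group. Every NEC library was above every control library (log2 change of 1.92 with SE 0.42; edgeR adjusted p = 0.0916). Fdft1, which joins farnesyl units into squalene, had 30.8, 59.2 and 17.8 CPM in the controls and 58.0, 34.9 and 138 CPM in the NEC group. Its groups overlapped, and NEC replicate 3 alone was above the highest control by a wide margin (log2 change of 1.10 with SE 0.59; edgeR adjusted p = 0.425). Without that library the value was 0.38. Fdft1 shares 774 exonic bases with Ctsb, the cathepsin B gene on the opposite strand, which stood at 2285 to 5814 CPM. With the strand setting of the counting not stated, reads of the 2 genes cannot be told apart there. Ctsb had 4665, 5814 and 2671 CPM in control replicates 1 to 3, the same order as Fdft1, and 2285, 2916 and 2764 CPM in NEC replicates 1 to 3, where the order differed. The part of Ctsb reads in the Fdft1 counts was not tested.

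Hsd17b7 (ENSMUSG00000026675, mm10 chromosome 1, 169949535 to 169969241, minus strand) rose as well. It had 9.78, 11.2 and 10.3 CPM in the controls and 34.5, 26.8 and 45.6 CPM in the NEC group. The 3 controls were nearly level and the lowest NEC library stood at more than the double of each of them. The mean went from 10.4 ± 0.695 to 35.6 ± 9.48 CPM (SD, n = 3 each), a fitted 3.42-fold rise (log2 change of 1.77 with SE 0.27; edgeR adjusted p = 0.0422).

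Neither call held in every fit that left out 1 library. Lss and Hsd17b7 remained called without NEC replicate 2 and were not called without control replicate 1, control replicate 2, control replicate 3, NEC replicate 1 or NEC replicate 3. Over these 6 fits the edgeR adjusted p of Lss ran from 0.0403 to 0.256 and that of Hsd17b7 from 0.0432 to 0.252. In the same fits the log2 fold change of Lss lay between 1.96 and 2.62 and that of Hsd17b7 between 1.56 and 1.93. The number called among all genes tested fell as well, from 135 with every library to between 0 and 106 in these fits.

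None of the other 7 enzymes after lanosterol passed the test, and the groups were apart for 2 of them, Msmo1 and Nsdhl. Every NEC library lay above every control library for both, which held for 10.8% of all genes tested. Msmo1, the C4-methyl sterol oxidase gene, had 24.5, 61.6 and 16.2 CPM in the controls and 99.1, 91.3 and 161 CPM in the NEC group. The groups were apart, and control replicate 2 stood at more than the double of each other control (log2 change of 1.78 with SE 0.51; edgeR adjusted p = 0.158). Nsdhl, which works with Msmo1 and Hsd17b7 to remove the C4 methyl groups, had 17.1, 20.6 and 12.8 CPM in the controls and 30.0, 29.2 and 28.5 CPM in the NEC group. The NEC libraries were almost level and all above the controls (log2 change of 0.80 with SE 0.25; edgeR adjusted p = 0.196). Cyp51, the lanosterol demethylase gene, had 36.3, 67.2 and 23.5 CPM in the controls and 60.8, 103 and 97.5 CPM in the NEC group. Its groups overlapped through control replicate 2 and NEC replicate 1 (log2 change of 1.04 with SE 0.41; edgeR adjusted p = 0.282).

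Ebp, Sc5d, Dhcr7 and Tm7sf2 act on the sterol ring and its double bonds, and for none of them did the groups separate. Ebp, the sterol isomerase gene, had 48.0 ± 7.83 CPM in the controls and 47.5 ± 8.91 CPM in the NEC group, with a log2 fold change of -0.02 (95% interval -0.58 to 0.55). Sc5d, the lathosterol oxidase gene, stood at 114 ± 27.8 and 130 ± 12.5 CPM (interval -0.38 to 0.77). For Dhcr7, which makes cholesterol from 7-dehydrocholesterol, the levels were 14.3, 10.5 and 17.5 CPM in the controls and 22.0, 15.5 and 12.2 CPM in the NEC group (interval -0.52 to 0.98). These libraries overlapped in both directions. Tm7sf2, a C14 sterol reductase gene, had 19.6 ± 4.72 and 19.9 ± 8.94 CPM (interval -0.83 to 0.88). All 4 intervals lie within a change of 1 on the log2 scale in either direction, for Dhcr7 only just. The sign of Ebp, Tm7sf2, Dhcr7 and Sc5d turned under at least 1 alternative setting each.

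Summed over the 18 synthesis genes, the level was 469, 689 and 380 CPM in control replicates 1 to 3 and 945, 840 and 1193 CPM in NEC replicates 1 to 3. Every NEC library was above every control library, and the ratio of the group means was 1.94. Of the 18 genes, 17 had a positive log2 fold change, against 51.9% of all genes tested, and 11 had a value above 1, against 9.79%. Control libraries differed among themselves in a shared way: control replicate 2 was the highest control for 15 of the 18 genes and control replicate 3 was the lowest for 12. In NEC, replicate 3 was the highest for 9 and replicate 2 the lowest for 10. The median log2 fold change of the 18 was 1.13, and it was 0.86 without control replicate 3 and 1.60 without control replicate 2.

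Sample codes in the labels begin with AG181017 for control replicates 1 and 2 and NEC replicates 2 and 3, and with AG181028 for control replicate 3 and NEC replicate 1, and the labels do not say what the code stands for. Within the AG181017 samples the median log2 ratio of the 18 synthesis genes was 1.03, with 15 of 18 positive, and within the AG181028 pair it was 1.56, with 16 of 18 positive. Lss had log2 ratios of 2.06 and 2.69 in the 2 sets, Hsd17b7 of 1.74 and 1.74, Sqle of 1.54 and 2.97, and Fdps of 1.42 and 2.39. Neither Lss (edgeR adjusted p = 0.124) nor Hsd17b7 (0.155) passed within the 4 AG181017 samples, and the pair allows no test.

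Over all 29 genes the sign was the same in both sets for 24, and it differed for Pmvk, Sc5d, Tm7sf2, Npc1 and Abcg8. Shares over all genes tested were not computed for this count or for the counts of positive genes within each set. These counts are therefore descriptions only.

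**Figure D3:**
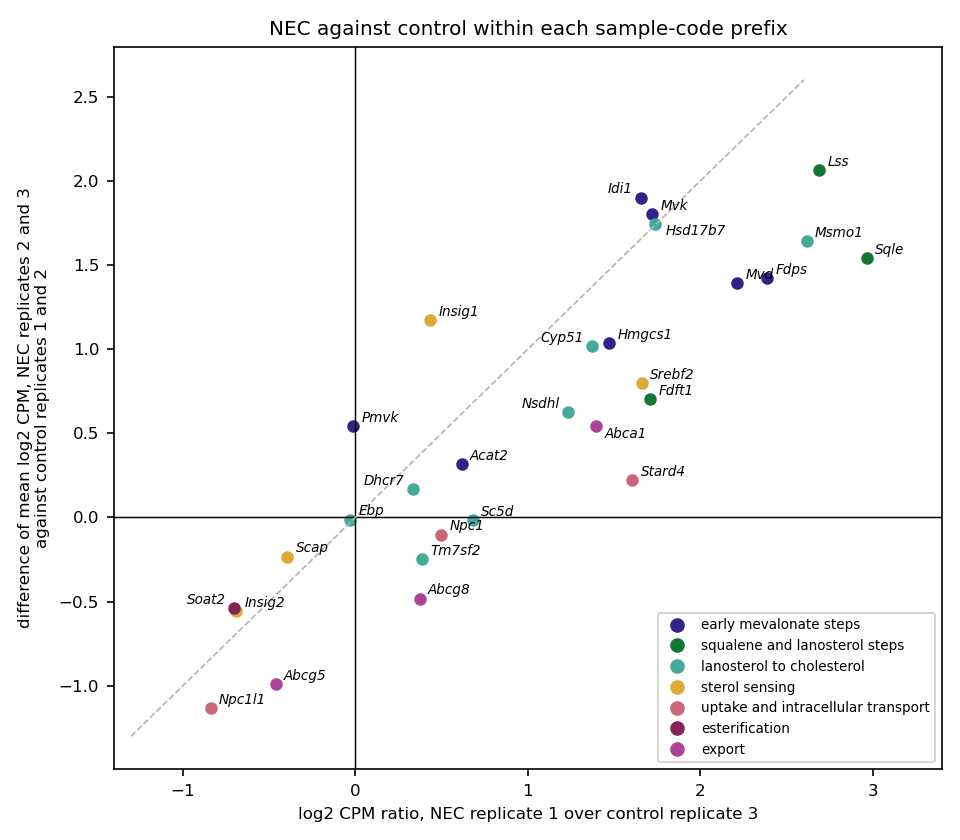
Each point is 1 of the 29 genes, with the log2 CPM ratio of the AG181028 pair on the x axis and the difference of mean log2 CPM within the 4 AG181017 samples on the y axis; the dashed line marks equal values. Lss, Sqle and Msmo1 lie farthest to the upper right, Npc1l1 lies at the lower left, and 24 of the 29 genes have the same sign on both axes. The share of all genes tested with the same sign was not computed.

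None of the 4 sensing genes was called by edgeR; at an unadjusted p below 0.05, 2 were higher and 1 was lower, beside 7.61% and 7.99% of all genes tested. Srebf2, which encodes SREBP-2, had 49.0, 52.9 and 42.2 CPM in the controls and 133, 65.1 and 120 CPM in the NEC group. NEC replicate 2 was near the controls and the other 2 were well above them (log2 change of 1.15 with SE 0.30; edgeR adjusted p = 0.135). Insig1, itself an SREBP target, had 41.4, 62.3 and 57.9 CPM in the controls and 78.3, 81.2 and 162 CPM in the NEC group. The groups were apart and NEC replicate 3 was the highest (log2 change of 0.99 with SE 0.34; edgeR adjusted p = 0.232), with a value of 0.57 without that library.

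Insig2, the second retention factor, had 45.5, 43.4 and 42.0 CPM in the controls and 26.0, 32.9 and 27.8 CPM in the NEC group. Its NEC libraries all lay below the controls, which held for 11.6% of all genes tested (log2 change of -0.60 with SE 0.21; edgeR adjusted p = 0.236). The ratio of Insig1 to Insig2 CPM, not divided by length, was 0.910, 1.44 and 1.38 in control and 3.01, 2.47 and 5.83 in NEC. As Insig1 was apart upward and Insig2 apart downward, this ratio had to be apart too, and it is not a separate result. Scap, the escort gene, had 35.0, 23.7 and 45.2 CPM in the controls and 34.4, 24.7 and 24.3 CPM in the NEC group, and the groups overlapped (log2 change of -0.32 with SE 0.30; edgeR adjusted p = 0.676).

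Npc1l1, the sterol importer of the enterocyte brush border, had the highest level of the 29, in CPM and per length. It had 1029, 675 and 1064 CPM in the controls and 595, 355 and 408 CPM in the NEC group. Each NEC library lay below each control, with a gap from 595 to 675 CPM (log2 change of -1.03 with SE 0.31; edgeR adjusted p = 0.175). The difference had the same sign in both sets of sample codes, at -1.13 and -0.84, and DESeq2 called it lower (adjusted p = 0.0451). Npc1l1, Soat2 and Abcg5, all made in enterocytes, had negative values, as did the 6 enterocyte markers. Abcg8 and Abca1, the other export genes, had values of 0.03 and 0.97. The part of enterocyte RNA in these differences was not tested.

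Npc1, which moves cholesterol out of lysosomes, had 56.9, 54.3 and 54.4 CPM in the controls and 76.9, 45.0 and 59.7 CPM in the NEC group. NEC libraries lay on both sides of the level controls (log2 change of 0.13 with SE 0.25; edgeR adjusted p = 0.860). Stard4, a soluble sterol carrier, had 100.3, 197 and 70.1 CPM in the controls and 213, 164 and 164 CPM in the NEC group. Control replicate 2 stood among the NEC values, so the groups overlapped (log2 change of 0.56 with SE 0.39; edgeR adjusted p = 0.547), and the value was 1.08 without that library and 0.27 without control replicate 3.

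Soat2, the enterocyte and liver enzyme that esterifies cholesterol, had 152, 79.8 and 185 CPM in the controls and 114, 67.9 and 84.7 CPM in the NEC group. The groups overlapped through control replicate 2 (log2 change of -0.65 with SE 0.35; edgeR adjusted p = 0.433). Among the export genes, Abcg5 had 307, 257 and 366 CPM in the controls and 266, 112 and 178 CPM in the NEC group. NEC replicate 1 stood just above the lowest control, and the other 2 NEC libraries were below all controls (log2 change of -0.74 with SE 0.34; edgeR adjusted p = 0.352). Abcg8, whose protein works only as a pair with ABCG5, had 127, 90.2 and 234 CPM in the controls and 303, 61.3 and 96.2 CPM in the NEC group. NEC replicate 1 was the highest of all 6 libraries and the other 2 NEC libraries were near the lowest, so the value of 0.03 (SE 0.61, edgeR adjusted p = 0.992) averages unlike libraries, and it was -0.94 without NEC replicate 1.

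The ratio of Abcg5 to Abcg8 CPM was 2.41, 2.85 and 1.56 in control and 0.877, 1.83 and 1.85 in NEC, with the lowest value in NEC replicate 1. The 2 genes lie head to head on opposite strands and share 82 exonic bases, so a small part of their counts cannot be told apart. Abca1, the basolateral exporter and an LXR target, had 16.1, 14.5 and 20.7 CPM in the controls and 54.6, 17.3 and 28.6 CPM in the NEC group. NEC replicate 2 lay among the controls and the other 2 lay above (log2 change of 0.97 with SE 0.42; edgeR adjusted p = 0.322), and without NEC replicate 1 the value was 0.42.

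**Figure D4:**
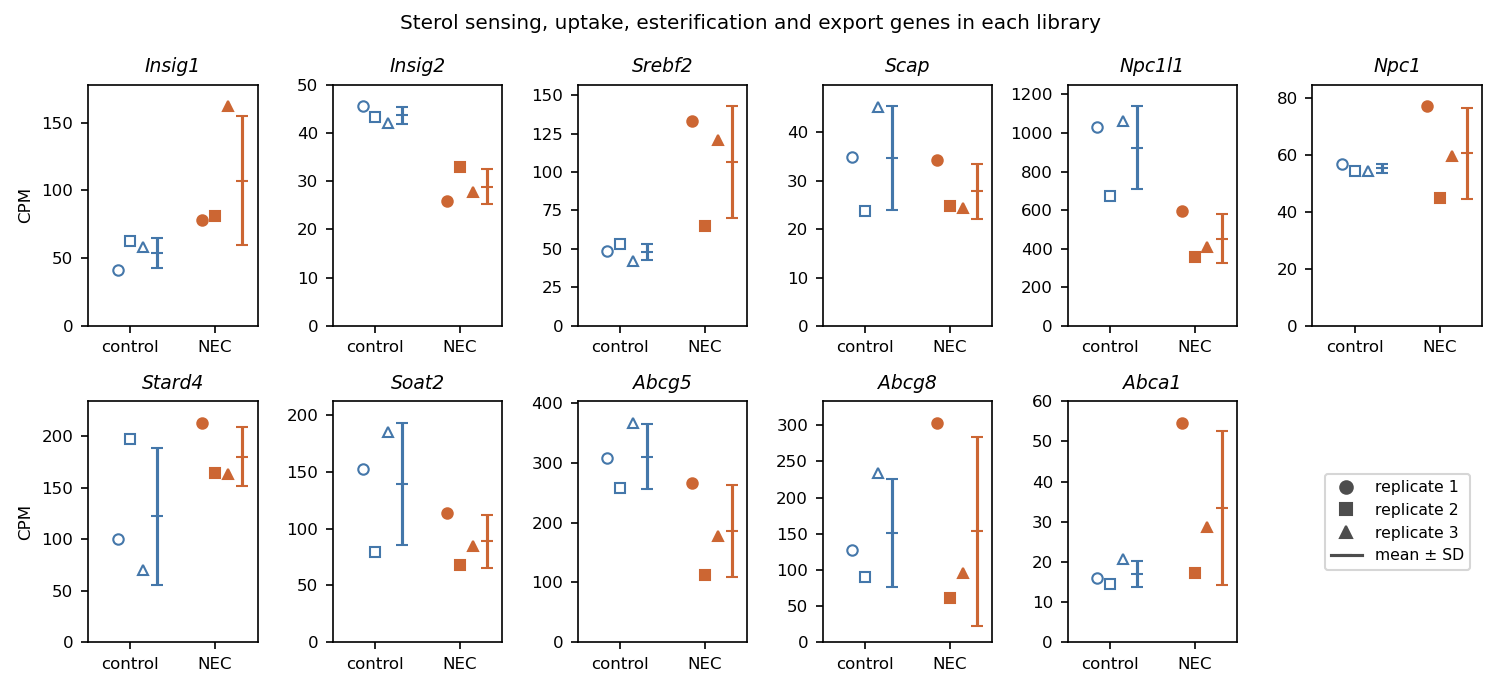
CPM of the 11 sensing, uptake, esterification and export genes in each library on linear axes that start at 0, with 1 shape per replicate number and the mean ± SD of each group (n = 3). NEC lies wholly above control for Insig1 and Srebf2 and wholly below it for Insig2 and Npc1l1, and NEC replicate 1 stands apart for Abcg8 and Abca1. Of all genes tested, 10.8% lay wholly above and 11.6% wholly below.

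Divided by the length of the principal transcript, so that genes can be set side by side, Npc1l1 and Abcg5 had the highest levels in both groups and Abca1 one of the lowest, 1.67 in control and 3.26 in NEC per 1000 bases. Npc1l1 had 206.6 CPM per 1000 bases in control and 101.3 in NEC, Abcg5 had 132 and 78.8, Soat2 had 62.9 and 40.2, and Abcg8 had 41.1 and 41.9. The highest synthesis gene on this scale was Ebp in control, at 27.5, and Msmo1 in NEC, at 57.3, followed by Fdps at 53.2. Lss had the lowest control level of the 18 synthesis genes, 1.23 CPM per 1000 bases, and reached 6.29 in NEC. Mvk at 2.13, Hsd17b7 at 2.26 and Idi1 at 3.17 were next lowest in control, and their NEC levels were 7.19, 7.72 and 10.7. The sterol ring enzymes Ebp and Sc5d, with the highest control levels per length of the synthesis genes at 27.5 and 23.9, were at 27.2 and 27.3 in NEC.

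**Figure D5:**
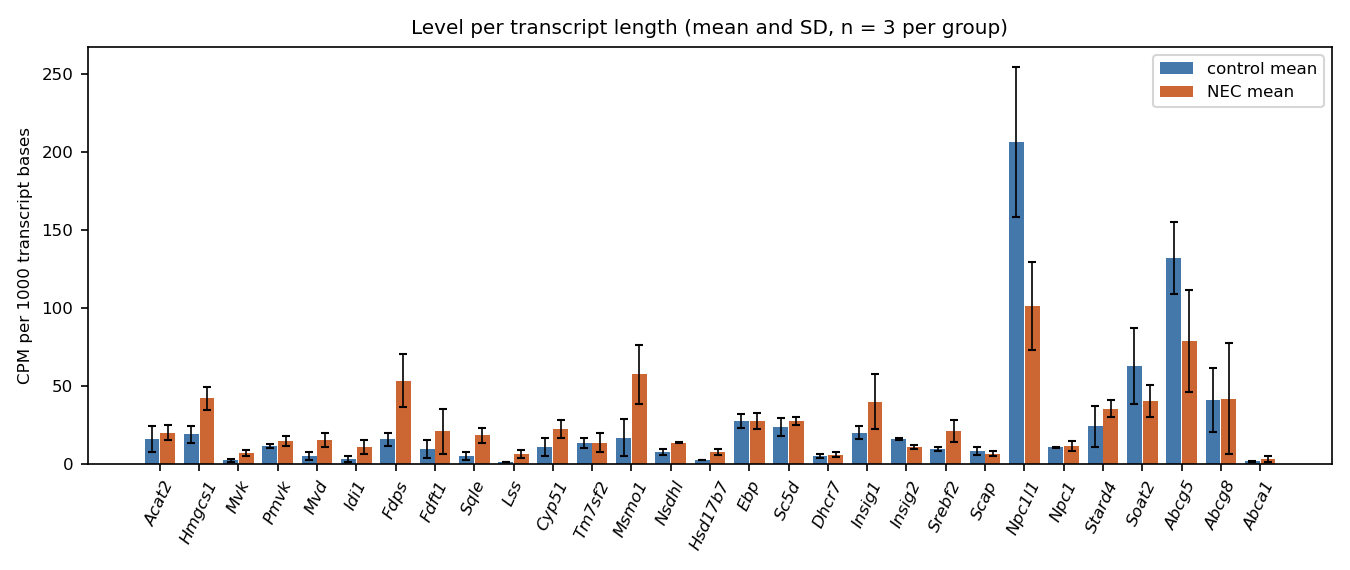
Mean CPM per 1000 transcript bases of the 29 genes in control (blue) and NEC (orange), with SD (n = 3 per group). Npc1l1 and Abcg5 have the tallest bars in both groups, and among the enzymes Fdps, Msmo1 and Hmgcs1 show the largest steps from control to NEC.

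A wider list of 46 measured genes around the pathway held 1 called gene, which fell, where 0.704% of all genes tested were called. Of the 46, 27 had positive values, against 51.9% of all genes tested, and the median log2 fold change was 0.11. The gene that fell was Acat1, the mitochondrial counterpart of Acat2 that serves ketone body and isoleucine metabolism. It had 577, 490 and 789 CPM in the controls and 88.4, 155 and 134 CPM in the NEC group, so that the groups were far apart (log2 change of -2.30 with SE 0.32; edgeR adjusted p = 0.0378). The other 2 genes with the smallest p among sterol ester and oxysterol enzymes were Cyp7b1 (1.15, SE 0.50) and Soat1 (-0.48, SE 0.22), and 1 of the 7 in that list was called.

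The 9 genes of the non-sterol branches, which lead to prenyl groups, dolichol and ubiquinone, held no called gene, and none had an unadjusted edgeR p below 0.05. Their log2 fold changes lay between -0.20 and 0.51, and those with the smallest p were Nus1 (0.44), Pdss1 (0.51) and Fntb (0.29). Of 10 genes for SREBP processing and sterol-driven degradation none was called by edgeR. At an unadjusted edgeR p below 0.05 there was 1, against 15.6% of all genes tested. That gene was Erlin1, a lipid-raft protein of the endoplasmic reticulum involved in SREBP retention, at 87.8, 102 and 82.8 CPM in the controls and 37.0, 42.6 and 34.2 CPM in the NEC group. The groups were well separated (log2 change of -1.26 with SE 0.22; edgeR adjusted p = 0.0527). Erlin2 (-0.47) and the SREBP site-1 protease gene Mbtps1 (-0.33) also had every NEC library below every control library, at adjusted p of 0.374 and 0.508 by edgeR. Such a separation held for 11.6% of all genes tested.

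Among 6 LXR receptors and targets none was called, with 2 higher and 1 lower at an unadjusted edgeR p below 0.05, against 7.61% and 7.99% of all genes tested. Nr1h3, which encodes LXR-alpha, had 27.5, 23.3 and 25.9 CPM in the controls and 11.5, 12.3 and 12.5 CPM in the NEC group, tight in both groups (log2 change of -1.08 with SE 0.23; edgeR adjusted p = 0.0838). The LXR targets Mylip and Abcg1 had values of 1.48 (SE 0.48) and 1.55 (SE 0.62), with edgeR adjusted p of 0.213 and 0.287, and both were highest in NEC replicate 1, at 43.0 and 20.8 CPM. Abca1 and Abcg8 were highest in that library too, while Abcg5 had 266 CPM there and was highest in control replicate 3, at 366 CPM.

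Of 14 further genes of sterol uptake and intracellular transport none was called, with 5 higher and 2 lower at an unadjusted edgeR p below 0.05 (7.61% and 7.99% of all genes tested). Vldlr, a lipoprotein receptor gene, had the largest value, with 1.91, 5.26 and 2.58 CPM in the controls and 44.8, 14.8 and 30.0 CPM in the NEC group (log2 change of 3.20 with SE 0.55; edgeR adjusted p = 0.0527). All NEC libraries were above all controls. Lrp1, a large endocytic receptor gene, had a value of -1.31 (SE 0.41, edgeR adjusted p = 0.191).

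Some marker lists of other cells differed between the groups too, mostly through some of their members. All tested markers of smooth muscle, fibroblasts, enteric neurons and glia, and B cells overlapped. Of the 5 goblet and the 5 Paneth markers each, 1 lay wholly above and 1 wholly below the controls, and 1 Paneth marker was called higher. Of the enteroendocrine markers 1 lay wholly above, and of the T cell markers 1 wholly below. Over all genes tested, 10.8% lay wholly above and 11.6% wholly below. The 5 crypt and cycling markers summed to 316 to 462 CPM in the controls and 64.5 to 309 CPM in the NEC group. Olfm4 (278 and 81.4 CPM on average) and Ascl2 lay below the controls in every NEC library, while Mki67, Top2a and Lgr5 overlapped, and none of the 5 was called. The 5 macrophage markers summed to 277 to 355 and 175 to 221 CPM, but the lower sum was that of Csf1r alone (278 and 130 CPM on average, log2 fold change -1.10). The other 4 macrophage markers had positive values, and Cd163 among them was called higher.

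The 5 erythroid markers summed to 145 to 213 CPM in the controls and 337 to 1680 CPM in the NEC group, with Hbb-bs, Hba-a1 and Alas2 above all controls. The 5 neutrophil markers summed to 5.05 to 11.9 and 23.8 to 51.5 CPM, with S100a8, S100a9 and Ltf above all controls and Ngp and Camp overlapping. Of the 5 endothelial markers, which summed to 61.5 to 120 and 123 to 134 CPM, Lyve1 was called higher and the other 4 overlapped.

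Alb, the defining transcript of liver, a tissue rich in sterol synthesis, was uneven: it stood at 25.9 CPM in control replicate 3 and 21.8 CPM in NEC replicate 1 and at no more than 0.201 CPM in the other 4 libraries. Control replicate 3 and NEC replicate 1 are the AG181028 samples. The 5 liver markers together summed to 497 to 663 CPM in the controls and 273 to 390 CPM in the NEC group, and Serpina1a alone lay below the controls in every NEC library. These sums came mostly from Ttr (379 and 307 CPM on average, overlapping) and Serpina1a (196 and 8.52 CPM), and so did not follow Alb. The 5 pancreas markers summed to 40.5 to 182 and 10.5 to 80.2 CPM. Of these Cela1 was called lower (31.9 and 3.83 CPM on average, log2 fold change -3.06, edgeR adjusted p = 0.0297), and Pnlip was at 0 in every library. The part of these cells in the sterol gene differences was not tested.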

How the data were processed

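The authors deposited their values as whole-number read counts per gene, for 6 libraries of mouse intestine, sequenced as 150 bp read pairs per the labels' protocols. The genome build is mm10 per the submitters' processing notes, while no aligner, counting tool, annotation or strandedness is given in the sources used here. Low counts gathered at multiples of 4 (1.99 times as frequent as their neighbours), so totals may overstate the number of fragments, and low counts may be less precise than they look. Symbols matched 54409 of 54446 identifiers. Genes were filtered with filterByExpr (minimum count 10), scaled by TMM and tested with edgeR 4.0.16 in R 4.3.3 (robust quasi-likelihood F test, Benjamini-Hochberg adjustment over 19176 genes). SE and 95% intervals come from that fit. DESeq2 1.42.0, limma-voom (limma 3.58.1), other scalings and filters, a replicate block, the sample-code prefix, and omission of libraries were alternatives. Positions and exon lengths are from GENCODE release M21. No pair of libraries was as alike as sampling noise allows (chi-square per degree of freedom of at least 122).

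The members and lists were chosen with earlier results of these data known. All 29 members are named. Values of every library are given for called members and for the 4 of each role group with the smallest p (in addition, Idi1, Acat2 and the other members by mean or fold change), and of the wider list, called genes and the 3 smallest p per sub-list are named. One gene that this rule names is not reported here.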

Additional observations from a re-analysis of the deposited data

How the results depend on the processing

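The median log2 fold change of the 18 synthesis genes was positive under every alternative run, from 0.858 to 1.600 when 1 library was left out, and 1.720 without control replicates 1 and 2 together, where the lone control is taken to vary like the NEC libraries. The number of the 29 genes called higher, 2 in the reported fit, was 10 with DESeq2, 1 with limma-voom, 0 within the AG181017 samples, 0 without control replicates 1 and 2, and 0 to 2 when 1 library was left out. With limma-voom Hsd17b7 was the gene called, and Lss had an adjusted p of 0.0571. DESeq2 called 1 gene lower, Npc1l1, and every other alternative called 0. Over all genes tested 135 were called, and the count was 247 with no low-count filter, 1446 with DESeq2, 243 with the sample code as a term, 25 within the AG181017 samples, 1 without control replicates 1 and 2, and 0 to 106 when 1 library was left out. The 0 arose without control replicate 1, where 1867 genes had an unadjusted edgeR p below 0.05, and the next lowest, 3, without NEC replicate 3. The cause of these shifts was not tested. Same-numbered replicates did not all deviate together (correlations of -0.141, 0.269 and -0.007; the highest of any pair, 0.358, was that of control replicate 3 with NEC replicate 1, the AG181028 samples, and control replicate 1 correlated best with NEC replicate 2), and with the replicate number as a block 0 of the 29 genes and 54 of all genes were called. Over all alternatives 10 values of single genes passed the threshold only there, 17 were no longer past it and 26 turned sign. The turns were in genes near 0. Abcg8 was -0.010 with upper quartile scaling, -0.195 with limma-voom, -0.219 with the block, -0.188 with the code term, -0.495 within the AG181017 samples, -0.607 without control replicates 1 and 2, and -0.938 to 0.505 with 1 library left out. Tm7sf2 was -0.032, -0.033, -0.054, -0.296 and -0.214 with limma-voom, block, code term, AG181017 samples and without control replicates 1 and 2, and -0.411 to 0.230 with 1 library left out. Ebp was 0.070 with library size alone, 0.277 without control replicates 1 and 2 and -0.164 to 0.116 with 1 library left out. Within the AG181017 samples Sc5d was -0.054 and Npc1 -0.116. With 1 library left out Npc1 ran from -0.080 to 0.304 and Dhcr7 from -0.029 to 0.419, and Dhcr7 was -0.078 without control replicates 1 and 2. Scaling moved the median of all genes by less than 0.1. Depth was not low for any of the 29 genes, and at this spread differences near 2-fold, such as those of Hmgcs1 and Npc1l1, were not called. Some larger differences were not called either, such as the fitted 3.79-fold of Sqle and, in the wider list, 9.20-fold of Vldlr.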

Other observations

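Some of the 29 genes have close neighbours or copies whose counts bear on theirs. Acat3, a paralog of Acat2, had at most 121 counts in any library, and Idi2, the paralog of Idi1, had at most 5. Gm43738, which shares 1124 exonic bases with Fdps on the same strand, had at most 82 counts. Gm48342, on the opposite strand of Hmgcs1, had at most 13 counts, and Gm48574, opposite Idi1, had 0. Vps51, which shares 532 exonic bases with Tm7sf2 on the same strand, had 5.38 to 11.8 CPM in control and 8.34 to 15.1 CPM in NEC, and Akap9, which shares 166 exonic bases with Cyp51, had 90.8 to 159 CPM over the 6 libraries.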
